A study of Mus musculus with 16 samples.

Results

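The genes described here are 10 markers of the unfolded protein response, the program by which a cell answers unfolded protein in its endoplasmic reticulum (ER): Atf6, Atf4, Xbp1, Ddit3, Hspa5, Hsp90b1, Dnajb9, Sdf2l1, Herpud1 and Trib3. They were chosen by symbol, and every probe set annotated to 1 of these symbols alone was taken, which gave 10 of the 18193 genes and 23 of the 45037 probe sets measured. The question was whether loss of an ER selenoprotein raises these markers. CT26 cells, a mouse colon carcinoma line of BALB/c origin, were stably transfected with a pU6-m3 plasmid and selected with hygromycin. Affymetrix mouse genome arrays were hybridized with 4 mRNA samples per line, 16 arrays in all.

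The shSep15 line carries a hairpin against the 15 kDa selenoprotein Sep15 (gene Selenof), a protein of the ER lumen that binds the folding sensor UGGT. The shTR1 line carries a hairpin against thioredoxin reductase 1 (TR1, gene Txnrd1), a cytosolic selenoenzyme that reduces thioredoxin. The shTR1/shSep15 line carries both hairpins, and the control line carries the empty pU6-m3 vector. All 4 lines thus share the vector backbone and the selection. Several clones of the hairpin lines were studied, and which clone was arrayed is not given in the sources used here, so that a line and a clone cannot be told apart. The stretches that the hairpins target are shown because they define the lines, in cDNA sense.
Sep15 hairpin target (Selenof, chromosome 3): acagaagagttccatttaa
TR1 hairpin target (Txnrd1, chromosome 10): atcgctctgacaagcttattag

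In the unfolded protein response the ER membrane sensors IRE1, PERK and ATF6 are held inactive by the chaperone BiP (Hspa5) and start separate branches when unfolded protein draws BiP away. IRE1 splices Xbp1 mRNA into the form that encodes an active factor, PERK phosphorylates eIF2α and so favours translation of ATF4, and ATF6 is cut in the Golgi to release its own transcription factor. Together they raise chaperones, components of ER-associated degradation and, under lasting stress, the death-linked factor CHOP (Ddit3). Much of this control lies in splicing, translation and cleavage, which a probe set for total mRNA does not read, whereas Hspa5, Dnajb9, Sdf2l1, Herpud1, Ddit3 and Trib3 are known as transcriptional targets.

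The values are deposited log2 signals, so that a difference of 1 is a doubling, and a probe set's signal is not a measure of 1 gene against another. Selenof was at 8.02 to 8.29 in shSep15 cells and 7.34 to 7.86 in shTR1/shSep15 cells, against 10.78 to 11.57 in control cells. By its brightest probe set, Txnrd1 was at 7.84, 10.57, 7.89 and 9.71 in the 4 arrays labelled shTR1, against 9.45 to 10.39 in control cells, so that replicates 2 and 4 lie at the control level and go against their label. The same probe set was at 7.18 to 7.91 in shTR1/shSep15 cells. At 2 dimmer probe sets the arrays labelled shTR1 had 4.62, 5.24, 4.76 and 5.58 (control 5.51 to 6.58) and 3.42, 3.56, 3.08 and 3.48 (control 3.54 to 4.09). There replicates 2 and 4 were above replicates 1 and 3, but 1 of them lay below all control arrays at each. Values without shTR1 replicates 2 and 4 are given beside many of the differences below, though not for every one that they change. Control replicate 2 had the largest 3′ minus 5′ log2 signal of the actin control probe sets (0.79, where the other arrays had 0.38 to 0.56) and the lowest weight of all arrays when arrays were weighted by their fit (0.24). Of 8 epithelial markers, 6 stayed at or below 6.59 on every array, among them Cdh1 (2.31 to 2.80), Epcam (5.44 to 6.59) and Vil1 (2.90 to 4.45), while the keratin genes Krt20 and Krt18 reached 9.50 and 8.90. Krt20 averaged 5.02 in shSep15 cells, against 8.31 in control cells, and fell by 3.28 (adjusted p = 0.00155 from limma). Krt18 averaged 3.26 in shSep15 cells, against 5.94 in control cells, and fell by 2.68 (adjusted p = 0.0390). The Krt18 call ended without any of 13 of the 16 single arrays, with an adjusted p of up to 0.129. Of 8 mesenchymal markers, 4 were higher and 4 lower in shSep15 cells than in control, and Vim was at 12.28 to 13.28 over all arrays. Col3a1 fell by 3.04 in shSep15 cells (adjusted p = 0.0307, and up to 0.0985 with single arrays left out, a call that ended without any of 6). Pdgfra averaged 5.55 in shSep15 cells, against 4.26 in control cells, and Col1a2 averaged 11.89, against 11.3. None of the 7 leukocyte and 5 endothelial markers passed in that comparison. The part of these markers in the results on the shSep15 line was not tested. No source says whether the mRNA samples came from separate cultures, so p-values measure the spread between these samples, and fewer cells with a transcript cannot be told apart from less transcript per cell.

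None of the 10 markers passed the test in any comparison. Each probe set was tested with limma over all 16 arrays, p-values were adjusted by Benjamini-Hochberg over 45037 probe sets, and the threshold was an adjusted p under 0.05. In shSep15 cells against control, 0 of 10 markers passed, where 2.72% of all genes did, and at an unadjusted p under 0.05 there were 2, both higher (Xbp1 and Sdf2l1), beside 15.3% of all genes. In the arrays labelled shTR1 against control, 0 passed (0.275% of all genes), and at an unadjusted p under 0.05 there were again 2, with Sdf2l1 higher and Atf4 lower (14.0% of all genes). In shTR1/shSep15 cells against control, 0 passed (0.0385% of all genes), with the same pair at an unadjusted p under 0.05 (8.79% of all genes). These 3 comparisons share the control arrays.

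The Sep15 hairpin can also be read in cells that carry the TR1 hairpin. In shTR1/shSep15 cells against the arrays labelled shTR1, 0 of 10 markers passed by limma (0.110% of all genes) and 0 reached an unadjusted p under 0.05 (11.3% of all genes). Of the 10, 9 were lower and 1 higher there, with a median of −0.36. Over all genes the median was 0.05 and 59.8% were higher. For the mean effect of the Sep15 hairpin over both backgrounds the counts were likewise 0 (0.115% of all genes) and 0 (7.72%). By that mean, 7 markers were lower and 3 higher, with a median of −0.11 (0.02 over all genes, of which 56.3% were higher). In shTR1/shSep15 cells against shSep15 cells 0 passed (3.50% of all genes), and Xbp1 and Herpud1 were lower at an unadjusted p under 0.05 (15.5% of all genes). In that comparison 9 markers were lower and 1 higher, with a median of −0.40 (0.03 over all genes, of which 56.7% were higher). Non-additivity, the difference between the effect of the Sep15 hairpin with and without the TR1 hairpin, passed for 0 markers (3.80% of all genes) and reached an unadjusted p under 0.05 for Xbp1 (19.0% of all genes). It was negative for 9 markers and positive for 1 (58.1% of all genes were positive). These tallies of direction are not a test. Over any difference among the 4 lines, the moderated F test passed for 0 markers (3.28% of all genes), with Xbp1, Sdf2l1 and Atf4 at an unadjusted p under 0.05 (17.5% of all genes). The analysis of variance named in the methods gave 0 markers after adjustment in each of these comparisons, and 0 to 2 without it.

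The median difference of the 10 markers was −0.04 in shSep15 cells, 0.05 in the arrays labelled shTR1 and −0.47 in shTR1/shSep15 cells against control, where the medians of all genes were −0.02, −0.03 and 0.01. In shSep15 cells 4 markers were higher and 6 lower than in control (46.3% of all genes were higher). In the arrays labelled shTR1 6 were higher and 4 lower (45.8% of all genes were higher). Of the 10 markers, 2 were higher in shTR1/shSep15 cells than in control (Sdf2l1 and Xbp1) and 8 lower, where 52.9% of all genes were higher. These tallies depend on single control arrays. Averaged over the 10 markers, replicates 2 and 4 deviated most from the control line, by 0.60 and −0.56. Without control replicate 4, Atf6 and Dnajb9 were no longer higher than control in the arrays labelled shTR1 (−0.29 and −0.31). Without control replicate 2 the medians were 0.22, 0.28 and −0.25 in shSep15 cells, the arrays labelled shTR1 and shTR1/shSep15 cells. Of 10 markers, 7, 8 and 3 were then higher than in control. Without shSep15 replicate 2 the median in shSep15 cells was −0.17, and without shTR1 replicates 2 and 4 that of the shTR1 line was −0.003, with 5 markers higher and 5 lower. The count of markers that passed was 0 in each comparison without shTR1 replicates 2 and 4, and also without control replicate 2 and shSep15 replicate 2.

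**Figure D1:**
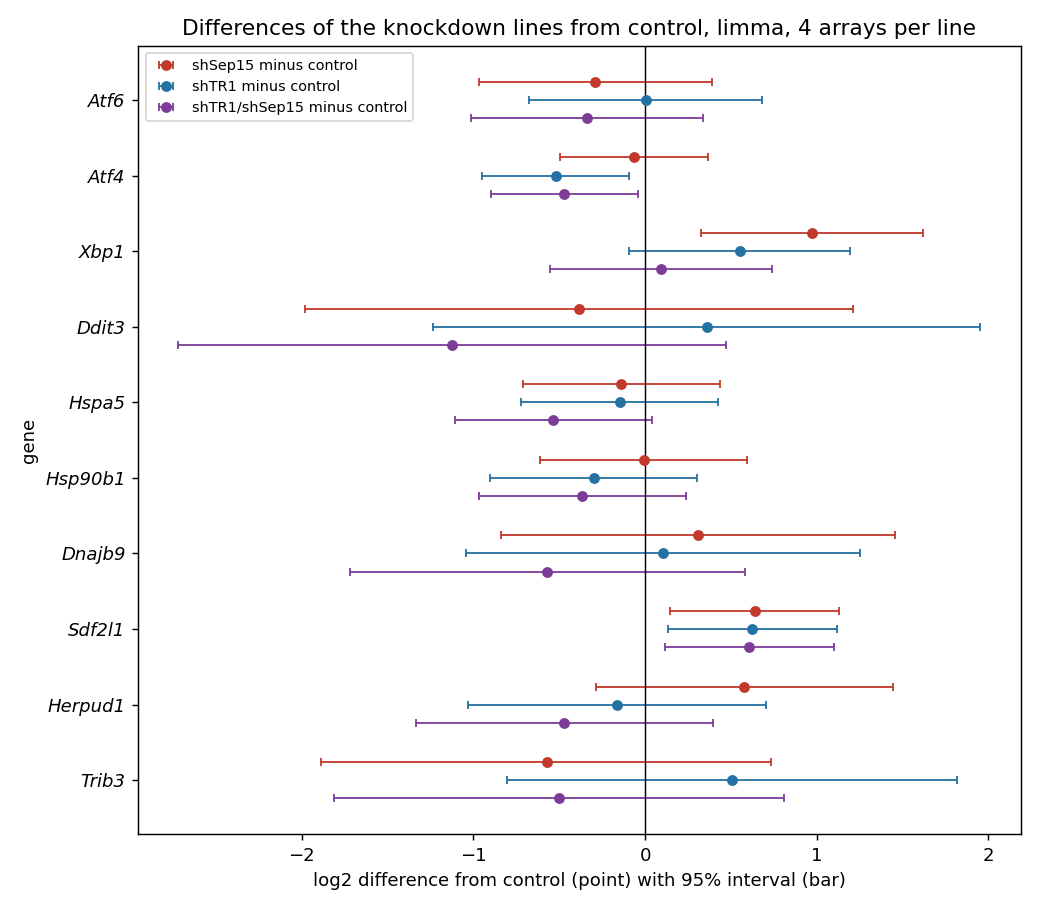
Log2 differences of the 3 knockdown lines from control for the 10 markers, with 95% intervals from the limma fit (n = 4 arrays per line). No difference passed an adjusted p under 0.05, and the widest intervals are those of Ddit3.

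Atf6, the membrane sensor that is cut to release a transcription factor, is located at chr1:170704457-170868585 (GRCm38.p6, as for every position here). Its brightest probe set had log2 signals of 7.61, 7.86, 7.83 and 7.62 in shSep15 replicates 1 to 4, 8.67, 8.08, 7.60 and 7.75 in the arrays labelled shTR1 and 7.50, 7.49, 7.51 and 8.22 in shTR1/shSep15 cells, against 7.63, 8.61, 8.70 and 7.15 in control cells. The control arrays alone spanned 7.15 to 8.70 and so enclosed every array of the other 3 lines. The difference from control was −0.29 in shSep15 cells (95% interval −0.97 to 0.39), 0.004 in the arrays labelled shTR1 and −0.34 in shTR1/shSep15 cells (95% interval −1.01 to 0.34). These were −0.09, 0.20 and −0.14 without control replicate 2, and in the shTR1 line 0.11 without its replicates 2 and 4. A second probe set for Atf6, with a larger variance, gave differences of 0.51 in shSep15 cells and, for the double knockdown, 0.20, with the opposite sign (adjusted p = 0.574 and 0.933 from limma), and the third gave −0.42 and −0.25.

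Atf4 encodes the transcription factor of the PERK branch and is located at chr15:80255184-80257545. Its log2 signals were 11.94, 12.30, 11.81 and 11.81 in shSep15 replicates 1 to 4, 11.23, 11.95, 11.07 and 11.78 in the arrays labelled shTR1 and 11.50, 11.56, 11.42 and 11.75 in shTR1/shSep15 cells, against 11.62, 12.34, 12.24 and 11.90 in control cells. Each shTR1/shSep15 array was lower than every shSep15 array, by 0.41 on average, although the limma test did not pass (adjusted p = 0.418). Against control, Atf4 differed by −0.52 in the arrays labelled shTR1 (95% interval −0.95 to −0.09) and by −0.47 in shTR1/shSep15 cells (95% interval −0.90 to −0.04), with adjusted p of 0.335 and 0.576, while shSep15 cells were within 0.06 of control. Within the arrays labelled shTR1, replicates 1 and 3, where Txnrd1 was low, had the lower Atf4 signals by the brightest probe set. The difference from control was −0.88 with these 2 arrays alone (adjusted p = 0.239 from limma). At the second-brightest probe set replicate 4 was the lowest of the arrays labelled shTR1 (9.495), and at the third replicate 1 was the highest (4.968). The 3 probe sets for Atf4 had the same sign in shTR1/shSep15 cells against control, where the second gave −0.49 and the third −0.41. They parted in the arrays labelled shTR1, with 0.10 by the second and −0.71 by the third (adjusted p = 0.302), and in shSep15 cells, with 0.38 and −0.29. By the second, too, each shTR1/shSep15 array was lower than every shSep15 array (−0.87, adjusted p = 0.104), and by the third they overlapped.

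Xbp1, whose spliced mRNA encodes the factor of the IRE1 branch, showed the largest difference among the markers in shSep15 cells. It is located at chr11:5520641-5525993, and its 4 probe sets measure total mRNA, not the spliced form. The log2 signals of the brightest were 9.998, 10.53, 9.85 and 10.10 in shSep15 replicates 1 to 4, 8.94, 9.92, 10.30 and 9.63 in the arrays labelled shTR1 and 9.34, 8.59, 9.45 and 9.58 in shTR1/shSep15 cells, against 9.57, 9.50, 8.97 and 8.54 in control cells. Each shSep15 array was higher than every control array and every shTR1/shSep15 array, while the arrays labelled shTR1 overlapped with every other line. Xbp1 was 1.96-fold the control level in shSep15 cells, a log2 difference of 0.97 (standard error 0.30, 95% interval 0.33 to 1.62), with an adjusted p of 0.138 from limma. Xbp1 was higher in the arrays labelled shTR1 too, with a mean of 9.70, against 9.15 in control cells. That difference was 0.47 without shTR1 replicates 2 and 4, and 0.349 to 0.805 over the single arrays left out, and it did not pass. In shTR1/shSep15 cells Xbp1 was within 0.09 of control, and 0.88 below shSep15 cells (adjusted p = 0.169). Its non-additivity of −1.43 had the smallest adjusted p of any marker in any comparison (0.0940 from limma). Without shTR1 replicates 2 and 4, the arrays that go against their label by the brightest Txnrd1 probe set, it was −1.35 (adjusted p = 0.290). It passed without shTR1 replicate 1 (−1.68, adjusted p = 0.0286), the array with the lowest Xbp1 signal of that line and 1 of the 2 in which Txnrd1 was low, and with weights for the arrays Xbp1 passed in shSep15 cells against control as well (log2 difference 1.09, adjusted p = 0.0193). The interferon-stimulated genes measured (5 of 8 listed) had a mean log2 signal of 6.07, 10.01, 9.29 and 9.43 in shSep15 replicates 1 to 4, against 4.85, 6.998, 5.51 and 4.75 in control replicates 1 to 4, and their part in the Xbp1 difference was not tested. In shSep15 replicate 1, where these genes were lowest within that line at 6.07, Xbp1 was at 9.998, which is 1 array and does not test their part.

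Of the other 3 probe sets for Xbp1, the 2 brighter ones moved alike across arrays. The second had signals of 9.31, 10.04, 8.86 and 9.56 in shSep15 cells, against 8.94, 8.76, 8.35 and 8.21 in control cells, and the third 7.28, 7.86, 6.86 and 7.25 in shSep15 cells, against 6.70, 6.74, 6.59 and 6.21 in control cells. The lines thus overlapped at the second, where shSep15 replicate 3 lay just below control replicate 1, and did not overlap at the third. The fourth had signals of 5.17 to 6.07 over all arrays, and control and shSep15 cells overlapped.

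Ddit3 encodes CHOP, the factor linked to cell death under ER stress, and lies at chr10:127290793-127296291. It had log2 signals of 9.57, 11.00, 10.36 and 9.96 in shSep15 replicates 1 to 4, 11.74, 10.13, 9.63 and 12.37 in the arrays labelled shTR1 and 9.40, 9.19, 9.38 and 9.96 in shTR1/shSep15 cells, against 9.06, 12.83, 11.29 and 9.26 in control cells. Control arrays alone covered 3.77, more than the distance between any 2 line means, and control replicate 2 and shTR1 replicate 4 were the highest of the 16 arrays. The differences from control were −0.38 in shSep15 cells (95% interval −1.98 to 1.21), 0.36 in the arrays labelled shTR1 (95% interval −1.24 to 1.95) and −1.12 in shTR1/shSep15 cells (95% interval −2.72 to 0.47). Without control replicate 2 they were 0.36, 1.10 and −0.38, so that this 1 array sets the sign for shSep15 cells. The difference of the shTR1 line was 0.08 without its replicates 2 and 4. The 4 shTR1/shSep15 arrays lay within 0.76 of each other, and control replicates 1 and 4 lay as low as they did. At the second, dimmer probe set for Ddit3 the signals were 6.08, 5.19, 6.10 and 5.46 in shTR1/shSep15 cells, against 6.74, 8.62, 6.56 and 6.25 in control cells, and there the lines did not overlap (−1.34, 95% interval −2.54 to −0.14, adjusted p = 0.568). The same probe set gave −0.32 in shSep15 cells and −0.27 in the arrays labelled shTR1, the last with the opposite sign to the brightest.

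**Figure D2:**
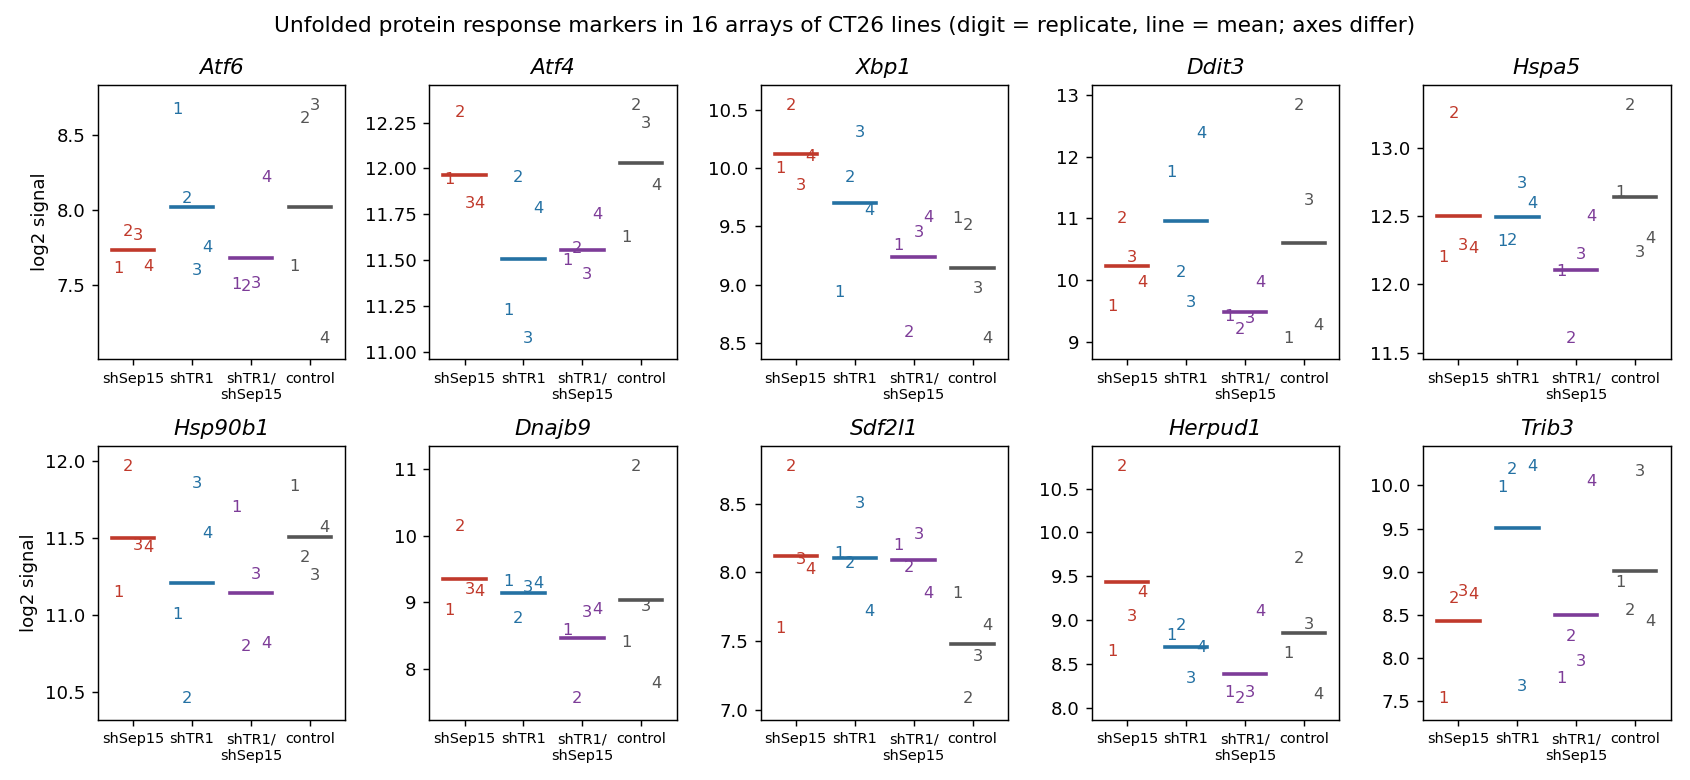
Log2 signal of the brightest probe set of each marker in the 16 arrays. A digit is the replicate number and the horizontal line is the mean (n = 4), with a separate axis for each gene. For Xbp1 the 4 shSep15 arrays lie above the control arrays, for Sdf2l1 the 4 shTR1/shSep15 arrays do, and the lines overlap for the other genes set against control.

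Hspa5 encodes BiP, the main Hsp70 chaperone of the ER lumen and the usual reporter of the response, and is located at chr2:34772090-34776529. Its log2 signals were 12.20, 13.25, 12.29 and 12.26 in shSep15 replicates 1 to 4, 12.31, 12.32, 12.74 and 12.59 in the arrays labelled shTR1 and 12.09, 11.61, 12.21 and 12.50 in shTR1/shSep15 cells, against 12.67, 13.30, 12.23 and 12.33 in control cells. The high values were 1 array of shSep15 cells and 1 array of control cells, both labelled replicate 2, and the remaining 3 arrays of each of these lines lay between 12.20 and 12.67. Hspa5 differed from control by −0.14 in shSep15 cells (95% interval −0.71 to 0.44, adjusted p = 0.882 from limma), which as a fold is 0.909 with an interval of 0.611 to 1.35. In shTR1/shSep15 cells the difference was −0.53 (95% interval −1.11 to 0.04) and in the arrays labelled shTR1 −0.15. The sign in shSep15 cells turned with 1 array: leaving out control replicate 2 gave 0.09, leaving out the replicate 2 of shSep15 cells gave −0.39, and with neither of them it was −0.16. In the other lines, leaving out control replicate 2 gave 0.08 in the arrays labelled shTR1 and −0.31 in shTR1/shSep15 cells. The other 2 probe sets for Hspa5 gave −0.04 and −0.14 in shSep15 cells.

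Hsp90b1 encodes GRP94, the Hsp90 chaperone of the ER lumen (chr10:86690841-86705444). The signals were 11.15, 11.97, 11.45 and 11.44 in shSep15 replicates 1 to 4, 11.00, 10.46, 11.85 and 11.53 in the arrays labelled shTR1 and 11.70, 10.80, 11.27 and 10.82 in shTR1/shSep15 cells, against 11.83, 11.38, 11.26 and 11.57 in control cells. Each of the 4 lines covered at least 0.58 and all overlapped. The shSep15 mean was 0.007 below control (95% interval −0.61 to 0.59), the arrays labelled shTR1 differed by −0.30 and shTR1/shSep15 cells by −0.36. The shTR1 difference was −0.08 without replicates 2 and 4 of that line, and over the single arrays left out it ran from −0.51 to −0.05. A second probe set, about as bright, gave 0.12, 0.005 and 0.21 in shSep15 cells, the arrays labelled shTR1 and shTR1/shSep15 cells, all with the opposite sign.

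The promoters of Hspa5, Hsp90b1 and Herpud1 are shown because they carry the elements through which ATF6 and XBP1 are known to act on ER chaperones. The windows of RefSeq run from 250 bases before to 50 bases after the start of a gene (GRCm38.p6), and 9 of the 10 markers matched by symbol, all but Atf6. On both strands, 4 motifs were searched: the ER stress response element (CCAAT and CCACG with 9 bases between), the ER stress response element II (ATTGG and CCACG with 1 base between), the core of the unfolded protein response element (TGACGTGG) and the composite element of ATF4 and CHOP (TGATGNAA). Capitals mark a match, and the stretches are written in the direction of transcription.
Hspa5 promoter, chr2:34772005-34772063, plus strand: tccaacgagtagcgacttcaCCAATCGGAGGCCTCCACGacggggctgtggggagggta
Hsp90b1 promoter, chr10:86705513-86705676, minus strand: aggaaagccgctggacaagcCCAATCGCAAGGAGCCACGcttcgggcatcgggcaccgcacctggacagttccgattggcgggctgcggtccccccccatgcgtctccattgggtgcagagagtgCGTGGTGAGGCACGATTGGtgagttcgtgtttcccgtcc
Herpud1 promoter, chr8:94386297-94386407, plus strand: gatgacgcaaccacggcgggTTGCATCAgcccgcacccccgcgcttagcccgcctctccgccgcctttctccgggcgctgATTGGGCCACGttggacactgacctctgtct

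The Hspa5 window held 1 ER stress response element, at −65 to −47 from the start, and the Hsp90b1 window held 2, at −212 to −194 and, on the opposite strand, at −107 to −89. The ER stress response element is present in 0.119% of 32851 such windows. Herpud1 held the element II at −52 to −42 (0.0365% of windows) and a composite element, TTGCATCA on the strand shown, at −112 to −105 (3.97% of windows). Trib3 had a composite element, TTACATCA on the gene's strand, at 15 to 22 bases after the start. The core of the unfolded protein response element was in none of the 9 windows (0.676% of windows), and Atf4, Xbp1, Ddit3, Dnajb9 and Sdf2l1 had no match to any of the 4 motifs in these windows. A match describes letters and is not a measured binding site.

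Dnajb9 encodes ERdj4, a J-domain partner of BiP, and lies at chr12:44205897-44210068. Its 1 probe set had log2 signals of 8.88, 10.15, 9.19 and 9.17 in shSep15 replicates 1 to 4, 9.31, 8.76, 9.23 and 9.28 in the arrays labelled shTR1 and 8.58, 7.55, 8.86 and 8.90 in shTR1/shSep15 cells, against 8.39, 11.04, 8.94 and 7.78 in control cells. Control replicate 2 was highest of all arrays and control replicate 4 next to lowest, so the control line covered 3.26. The differences from control were 0.31 in shSep15 cells (95% interval −0.84 to 1.46), 0.10 in the arrays labelled shTR1 and −0.57 in shTR1/shSep15 cells (95% interval −1.72 to 0.58). Without control replicate 2 they were 0.97, 0.77 and 0.10, with the sign turned in shTR1/shSep15 cells, and without control replicate 4 they were −0.11, −0.31 and −0.99, and none passed. For the shTR1 line it was 0.23 when its replicates 2 and 4 were left out.

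Sdf2l1, an ER protein that works with J-domain partners of BiP, was above control by a like amount in all 3 lines. It is located at chr16:17130138-17132383. Its 1 probe set had log2 signals of 7.59, 8.77, 8.09 and 8.02 in shSep15 replicates 1 to 4, 8.14, 8.06, 8.50 and 7.72 in the arrays labelled shTR1 and 8.19, 8.03, 8.27 and 7.85 in shTR1/shSep15 cells, against 7.84, 7.08, 7.39 and 7.61 in control cells. Each shTR1/shSep15 array was higher than every control array, the lowest at 7.85 and the highest control array at 7.84, and 3 of 4 arrays did so in each of the other lines. The log2 differences were 0.64, 0.62 and 0.61 in shSep15 cells, the arrays labelled shTR1 and shTR1/shSep15 cells (standard error 0.23 each), or 1.56, 1.54 and 1.52-fold the control level, with adjusted p of 0.223, 0.311 and 0.523 from limma. All 3 are set against the same 4 control arrays, of which replicate 2, the lowest at 7.08, was highest for 5 other markers. Without that array the differences were 0.51, 0.49 and 0.47. In shSep15 cells the difference was 0.42 without shSep15 replicate 2 and 0.29 without both replicates 2, and in the arrays labelled shTR1 it was 0.84 without replicates 2 and 4.

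Herpud1 encodes HERP, a membrane protein of ER-associated degradation (chr8:94386429-94395371). The log2 signals of its brightest probe set were 8.64, 10.75, 9.04 and 9.31 in shSep15 replicates 1 to 4, 8.83, 8.94, 8.33 and 8.69 in the arrays labelled shTR1 and 8.17, 8.10, 8.18 and 9.10 in shTR1/shSep15 cells, against 8.62, 9.71, 8.95 and 8.15 in control cells. As for Hspa5, replicate 2 was the highest array of both shSep15 and control cells. Herpud1 was 0.58 from control in shSep15 cells (95% interval −0.29 to 1.45), −0.16 in the arrays labelled shTR1 and −0.47 in shTR1/shSep15 cells, and it was 1.05 lower in shTR1/shSep15 cells than in shSep15 cells (95% interval −1.92 to −0.18, adjusted p = 0.240 from limma). Leaving out shSep15 replicate 2 brought the difference between these lines to −0.61 and that between shSep15 cells and control to 0.14. The differences from control were 0.86, 0.12 and −0.19 when control replicate 2 was left out, with the sign turned in the arrays labelled shTR1, where it was −0.28 with replicates 1 and 3 alone.

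Trib3 encodes a pseudokinase that is induced by ATF4 and CHOP and holds ATF4 in check (chr2:152337425-152344060). Its signals were 7.53, 8.69, 8.77 and 8.73 in shSep15 replicates 1 to 4, 9.97, 10.19, 7.66 and 10.22 in the arrays labelled shTR1 and 7.76, 8.25, 7.96 and 10.04 in shTR1/shSep15 cells, against 8.88, 8.55, 10.16 and 8.43 in control cells. In the arrays labelled shTR1, replicate 3 stood apart below the other 3, and in shTR1/shSep15 cells replicate 4 stood above the other 3. Trib3 differed from control by −0.57 in shSep15 cells (95% interval −1.89 to 0.74), 0.51 in the arrays labelled shTR1 (95% interval −0.80 to 1.82) and −0.50 in shTR1/shSep15 cells (95% interval −1.81 to 0.81). Without shTR1 replicates 2 and 4, both among the highest Trib3 arrays, the sign turned in that line, to −0.19.

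Groups that did not overlap were counted over all genes as well. Between shSep15 and control cells 1 of 10 markers did not overlap (Xbp1, above), where 7.57% of all genes did not. Between the arrays labelled shTR1 and control 0 markers were apart (4.71% of all genes), and between shTR1/shSep15 cells and control 1 was (Sdf2l1, above; 5.66% of all genes). Between shTR1/shSep15 cells and the arrays labelled shTR1 there were 0 (9.41% of all genes), and between shTR1/shSep15 and shSep15 cells 2, Xbp1 and Atf4, both below (17.8% of all genes).

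The spread between mRNA samples of a line was widest for Ddit3 and narrowest for Atf4. The SD within a line was 1.16 for Ddit3, 0.95 for Trib3, 0.83 for Dnajb9 and 0.63 for Herpud1, larger than for 99.4%, 98.9%, 98.1% and 94.1% of all genes. For Atf6, Xbp1, Hsp90b1 and Hspa5 it was 0.49, 0.46, 0.43 and 0.41, and for Sdf2l1 and Atf4 it was 0.35 and 0.30, larger than for 70.7% and 61.8% of all genes, whose median was 0.25. These shares were not matched for signal. Of the 18193 genes, 8054 had a mean log2 signal of at least 6, where each marker averaged 7.87 or more. The SD of the 4 line means was nearly as large as the SD within a line for Xbp1 (0.45), Atf4 (0.27) and Sdf2l1 (0.31), the 3 markers at an unadjusted p under 0.05 in the F test, and well below it for Ddit3 (0.64) and Atf6 (0.18). A mean of 4 arrays varies less than a single array, so these pairs describe the spread and do not test the lines.

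**Figure D3:**
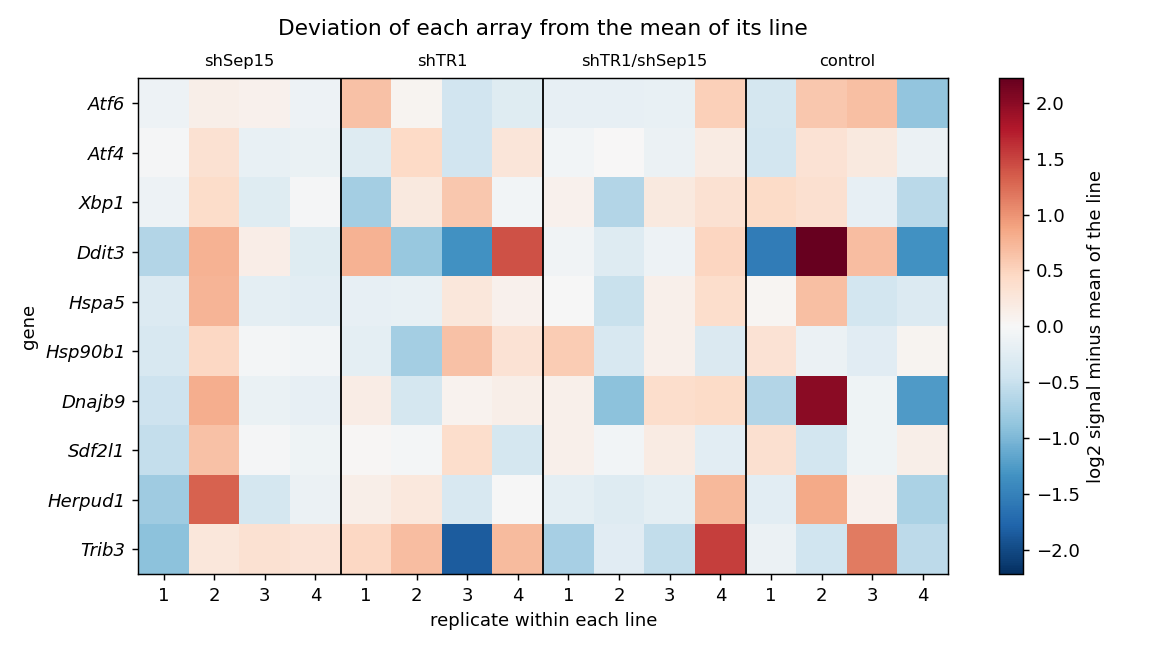
Deviation of each array from the mean of its line (log2) for the 10 markers, by line and replicate. Averaged over the 10 markers, control replicate 2 and shSep15 replicate 2 deviate most from their line, upwards, with Ddit3 at 12.83 and Dnajb9 at 11.04 in control replicate 2.

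Several markers were high or low on the same arrays. In shSep15 cells replicate 2 was highest of the line for 9 of 10 markers, Trib3 being the exception, and replicate 1 lowest for 8. Among the shTR1/shSep15 arrays replicate 4 was highest for 8 and replicate 2 lowest for 7. In control cells replicate 2 was highest for 5 (Atf4, Ddit3, Hspa5, Dnajb9 and Herpud1) and replicate 4 lowest for 5. Over all genes, shSep15 replicate 2 was the highest array of its line for 36.2%, shTR1/shSep15 replicate 4 for 23.8% and control replicate 2 for 24.8%. The mean log2 signal over the 10 markers was 9.51, 10.53, 9.87 and 9.84 in shSep15 replicates 1 to 4, 10.01, 9.88, 9.69 and 10.16 in the arrays labelled shTR1 and 9.42, 9.12, 9.45 and 9.87 in shTR1/shSep15 cells, against 9.61, 10.43, 10.01 and 9.27 in control cells. The ranges of the single knockdowns lay inside that of the control arrays but for shSep15 replicate 2, and shTR1/shSep15 replicate 2 lay below all control arrays.

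The deviations from the line means were correlated, as a description over 16 arrays that share their line means, at r = 0.81 between Hspa5 and Dnajb9, 0.78 between Ddit3 and Dnajb9, 0.76 between Hspa5 and Herpud1 and 0.72 between Xbp1 and Hspa5. Hsp90b1 followed Sdf2l1 (r = 0.58) more than Hspa5 (r = 0.42) and ran against Trib3 (r = −0.48). Between Trib3 and Hspa5 r was −0.04, while Trib3 followed Atf6 (r = 0.59) and Atf4 (r = 0.53).

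Among 8044 genes with a mean log2 signal of at least 6, those most like Hspa5 over the 16 arrays were Egr1 (r = 0.88), an immediate early transcription factor, Usb1 (0.87), Cdadc1 (0.87), the linker histone gene H1f2 (0.85) and the transcription kinase gene Cdk12 (0.84). Without the 2 arrays farthest from the median, control replicate 2 and shSep15 replicate 2, these were 0.81, 0.66, 0.82, 0.70 and 0.64. Most like Trib3 were Angptl6 (r = 0.90), Gtpbp2 (0.88), Steap1 (0.87), Nfe2l1 (0.87), an ER-anchored transcription factor that controls proteasome genes, and Tbpl1 (0.86). The 2 arrays farthest from the median for Trib3 were shTR1 replicates 2 and 4, and without them r was 0.87 to 0.92.

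Of the wider pathway, 5 lists were counted. Among sensors and regulators, 18 of 19 listed genes were measured and 2 passed in shSep15 cells against control (2.72% of all genes), both higher, with a median difference of −0.09 over the list. Creb3, an ER-bound transcription factor related to ATF6, had log2 signals of 9.94, 9.48, 9.94 and 9.94 in shSep15 cells, against 8.47, 8.30, 9.26 and 8.56 in control cells, and rose by 1.18 (adjusted p = 0.00457 from limma). No shSep15 array overlapped with control. Eif2ak2, the interferon-induced kinase PKR, which phosphorylates eIF2α on sensing double-stranded RNA, was at 8.38, 10.13, 9.69 and 9.59 in shSep15 cells, against 7.58, 6.52, 7.36 and 7.39 in control cells, and rose by 2.23 (adjusted p = 0.0244, which was up to 0.0859 without control replicate 4 or shSep15 replicate 2, 3 or 4). Both Creb3 and Eif2ak2 were lower in shTR1/shSep15 cells than in shSep15 cells, by 1.28 and 2.66 (adjusted p = 0.00216 and 0.00731), and the non-additivity of both passed, as did that of Eif2ak1, the heme-regulated kinase of eIF2α (−1.20, adjusted p = 0.0375). The non-additivity of Creb3 and Eif2ak2 still passed without shTR1 replicates 2 and 4 (adjusted p = 0.0149 and 0.0177), and that of Eif2ak1 did not (0.0948). With control replicate 2 left out, Eif2ak1 also passed in shSep15 cells against control (0.87, adjusted p = 0.0365, where 3.78% of all genes passed). No gene of this list passed against control in the arrays labelled shTR1 or in shTR1/shSep15 cells.

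In the list of folding targets of ATF6 and XBP1, 30 of 31 genes were measured. In shSep15 cells 26 were above their control level (46.3% of all genes were), with a median of 0.29 where all genes had −0.02. Of the 30, 3 passed, all higher, where 2.72% of all genes passed in either direction. Sec24d, a coat protein of vesicles that leave the ER, was at 9.86, 10.42, 10.04 and 10.06 in shSep15 cells, against 8.73, 7.29, 8.10 and 8.33 in control cells, and rose by 1.99 (adjusted p = 0.000914 from limma). Ostc, a subunit of the oligosaccharyltransferase, was at 10.85, 11.35, 11.40 and 11.28 in shSep15 cells, against 10.13, 8.88, 9.49 and 9.63 in control cells, and rose by 1.68 (adjusted p = 0.00205). Serp1, which stabilizes membrane proteins at the translocon under stress, rose by 1.00 (adjusted p = 0.0177, and up to 0.0627 without shSep15 replicate 3 or 4). These 3 were the only genes of the list on chromosome 3, where Selenof lies as well. Of all genes on chromosome 3, 113 of 913 rose in shSep15 cells (12.4%), against 225 of 17280 (1.30%) on the others. Without them, 23 of 27 genes of the list were higher, with a median of 0.23, and 0 passed. What part the chromosome has in the result was not tested.

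In the arrays labelled shTR1 and in shTR1/shSep15 cells, 24 and 25 of the 30 folding targets were higher than in control (45.8% and 52.9% of all genes were). The medians were 0.24 and 0.33, and 0 passed in either. All 3 comparisons share the control arrays, in which the list averaged 9.56, 8.98, 9.25 and 9.36 over its genes, lowest in replicate 2. It averaged 9.38, 9.89, 9.65 and 9.69 in shSep15 cells, 9.60, 9.47, 9.63 and 9.58 in the arrays labelled shTR1 and 9.59, 9.41, 9.61 and 9.66 in shTR1/shSep15 cells, so that control replicate 1 overlapped with every line. Control replicate 2 was thus the lowest array for these targets, while it was the highest for Ddit3, Hspa5 and Dnajb9. Without it 21, 19 and 24 of 30 were higher than in control in shSep15 cells, the arrays labelled shTR1 and shTR1/shSep15 cells, with medians of 0.26, 0.11 and 0.25. Without shSep15 replicate 2 the median in shSep15 cells was 0.14. Fkbp11, a prolyl isomerase of secretory cells, was higher in shTR1/shSep15 cells than in shSep15 cells by 0.56 (adjusted p = 0.0366, a call that ended without any of 7 single arrays), and Sec24d and Ostc were lower there, by 1.54 and 1.22 (adjusted p = 0.00412 and 0.0126). Without shTR1 replicates 2 and 4, Fkbp11 did not pass there (adjusted p = 0.0511 from limma). The non-additivity of Serp1 passed only with arrays left out, among them these 2 (−1.35, adjusted p = 0.0409).

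**Figure D4:**
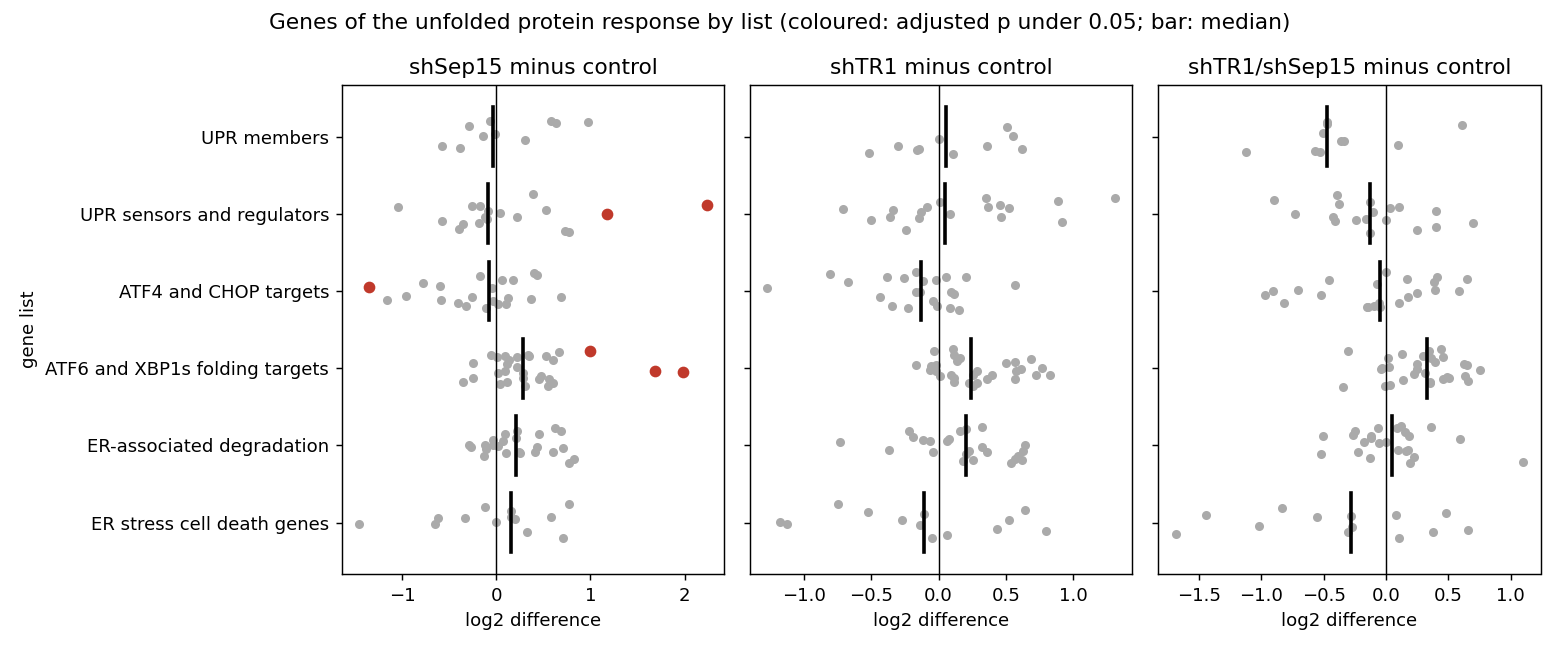
Log2 differences from control of each measured gene of the 10 markers and the 5 pathway lists, for shSep15, the arrays labelled shTR1 and shTR1/shSep15. Coloured points passed an adjusted p under 0.05 and the vertical bar is the median, which for the folding targets is 0.29, 0.24 and 0.33. The horizontal axes differ between panels.

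Among targets of ATF4 and CHOP, 22 of 25 genes were measured. In shSep15 cells 9 were higher and 13 lower than in control (46.3% of all genes were higher), with a median of −0.08. The 1 gene that passed (2.72% of all genes did) was Vldlr, a lipoprotein receptor, at 8.70, 8.62, 8.63 and 8.34 in shSep15 cells, against 9.92, 8.83, 10.77 and 10.15 in control cells. It fell by 1.35 (adjusted p = 0.0290 from limma, and up to 0.104 without control replicate 3 or 4 or shSep15 replicate 1, 3 or 4), and was higher in shTR1/shSep15 cells than in shSep15 cells by 1.76 (adjusted p = 0.00510). In shSep15 cells, Phgdh, on chromosome 3, rose by 0.87 without control replicate 3 (adjusted p = 0.00812, where 452 of 18193 genes passed). Fgf21 fell by 0.85 without control replicate 1 (adjusted p = 0.0481, where 582 of 18193 genes passed). Against control, 0 of the 22 passed in the arrays labelled shTR1 or in shTR1/shSep15 cells, with medians of −0.13 and −0.05. The first of these medians was −0.33 without shTR1 replicates 2 and 4, with 3 genes higher and 19 lower.

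For ER-associated degradation, 24 of 25 genes were measured and 0 passed against control in any line, with medians of 0.21, 0.20 and 0.04 in shSep15 cells, the arrays labelled shTR1 and shTR1/shSep15 cells. Ube2j2, a ubiquitin-conjugating enzyme of the ER membrane, was higher in shTR1/shSep15 cells than in the arrays labelled shTR1 by 0.83 (adjusted p = 0.0425, where 0.110% of all genes passed, and a call that ended without any of 11 single arrays). With shTR1 replicates 2 and 4 left out, it was lower than control in that line by 0.95 (adjusted p = 0.0317, where 0.0605% of all genes passed). In the same fit Ube2j1, of the same enzyme family, was higher than control in shSep15 cells by 0.69 (adjusted p = 0.0272, where 2.79% of all genes passed). Non-additivity passed for Faf2 (−1.05), which recruits VCP to the ER, for Selenos (−1.25), a selenoprotein of the degradation complex, for Edem3 (−1.10), a mannosidase, and for Ube2j2 (0.85), with adjusted p of 0.00699, 0.0280, 0.0493 and 0.0304, where 3.80% of all genes passed. Without shTR1 replicates 2 and 4, 1.63% of all genes passed, and of these 4 Faf2 (adjusted p = 0.0210) and Ube2j2 (0.0152) did, but not Selenos (0.0556) or Edem3 (0.155). The call of Faf2 held with each single array left out, and those of Selenos, Edem3 and Ube2j2 ended without any of 7, 12 and 9 of the 16 arrays. Selenos was at 10.61, 11.26, 11.06 and 10.94 in shSep15 cells, 10.89, 10.47, 11.00 and 10.83 in the arrays labelled shTR1 and 10.34, 9.79, 10.45 and 10.45 in shTR1/shSep15 cells, against 10.49, 10.62, 10.04 and 9.89 in control cells. With all arrays, Selenos did not pass against control in either single knockdown (adjusted p = 0.0952 and 0.309) and was within 0.003 of control in shTR1/shSep15 cells. With control replicate 2 left out, it passed in shSep15 cells against control (0.83, adjusted p = 0.0460 from limma, where 3.78% of all genes passed).

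Of the genes of ER stress cell death, 13 of 14 were measured and 0 passed against control in any line. With control replicate 2 left out, Mcl1, an antiapoptotic member of the BCL2 family, was higher in shSep15 cells by 0.94 (adjusted p = 0.0145 from limma). In that fit 3.78% of all genes passed. Mcl1 lies on chromosome 3, as Selenof does. With all arrays, 12.4% of the genes on that chromosome rose in shSep15 cells, against 1.30% on the others. The part of the chromosome in this difference was not tested. Casp12, the caspase of the ER membrane, was at 4.10, 4.88, 5.76 and 5.77 in shSep15 cells, 3.82, 3.50, 4.30 and 4.95 in the arrays labelled shTR1 and 3.17, 3.85, 3.44 and 3.86 in shTR1/shSep15 cells, against 4.41, 4.48, 4.55 and 4.23 in control cells. It was lower in shTR1/shSep15 cells than in shSep15 cells by 1.55 (adjusted p = 0.0294 from limma, a call that ended without any of 6 single arrays). These are low signals on arrays whose median over all probe sets was 4.45 to 4.58.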

How the data were processed

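The deposited values are log2 signals that the authors made by Robust Multi-Array Analysis (RMA, no version given), which corrects background, normalizes and sums the probes of each set, and they were used unchanged. Such files hold no counts, and 4 arrays per line limit the precision. Of 45101 probe sets, 64 manufacturer controls were left out, and 34945 of the rest carry 1 gene symbol, 932 several and 9160 none. A gene stands for its single-symbol probe set with the highest mean over all arrays. limma 3.58.1 (R 4.3.3) fitted a mean for each line over all 16 arrays with empirical Bayes moderation (12 residual and 2.58 prior degrees of freedom), which also gave the 95% intervals. The fit was tested on simulated data. The markers, the lists and the tests were chosen with earlier results of these data known. Named from each list were the genes that passed in any of 7 comparisons, at most 6. Of the genes that passed only with arrays left out, some were named as well, without a fixed rule, and others were not. The 5 genes most like Hspa5 and the 5 most like Trib3 were also named. No set test was run. The alternatives were an intensity trend, a minimum mean signal of 6, the compared lines alone, median centring, quantile normalization, the methods' ANOVA, other probe sets of a gene, a replicate block, array weights, each array left out, shTR1 replicates 2 and 4 left out, and, chosen after seeing the data, both replicates 2 of shSep15 and control left out. Figures were drawn with matplotlib 3.10.9.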

Additional observations from a re-analysis of the deposited data

Results flagged for a closer look

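Of 40 groups of 4 arrays (10 markers in 4 lines), 6 held an array far from the other 3 by Dixon's test at its 95% critical value. Chance flags about 1 in 20 groups. Hspa5 was at 13.25 in shSep15 replicate 2, where the other arrays of the line had 12.20 to 12.29. In shTR1/shSep15 replicate 4, Atf6 was at 8.22 (the others at 7.49 to 7.51) and Herpud1 at 9.10 (8.10 to 8.18). Dnajb9 was at 8.76 in shTR1 replicate 2, below 9.23 to 9.31 in the others. Trib3 was at 7.53 in shSep15 replicate 1 (8.69 to 8.77) and at 7.66 in shTR1 replicate 3 (9.97 to 10.22).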

How the results depend on the processing

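The count of markers that passed was 0 in 225 of 237 combinations of a comparison and an alternative. By the methods' ANOVA without adjustment, 2 markers passed in each line against control (Sdf2l1 and Xbp1 in shSep15, Sdf2l1 and Atf4 in the other lines), 2 in shTR1/shSep15 against shSep15 (Xbp1 and Herpud1), and 1 (Xbp1) in non-additivity and among the 4 lines. With array weights, 1 passed (Xbp1) in shSep15 against control, in shTR1/shSep15 against shSep15, in non-additivity and among the 4 lines. With the arrays of the compared lines alone, 1 passed (Xbp1, adjusted p = 0.0432) in shTR1/shSep15 against shSep15. Over the 16 fits without 1 array each, counts were 0 throughout, except 0 to 1 for non-additivity, where Xbp1 passed without shTR1 replicate 1. Of 2080 marker differences under an alternative, 122 changed sign, none of them called, and 15 of these moved by more than 1 standard error. With the probe set of largest variance, Atf6 was 0.51 in shSep15 and 0.20 in shTR1/shSep15 against control and 0.13 in the mean effect of the Sep15 hairpin, and Atf4 was 0.38 in shSep15 and 0.10 in the arrays labelled shTR1 against control, −0.59 in shTR1/shSep15 against shTR1 and −0.97 in non-additivity. Without shTR1 replicates 2 and 4, the mean effect of the Sep15 hairpin on Atf4 was 0.17 (0.22 without control replicate 2 as well; −0.078 to 0.067 over the single arrays left out) and Trib3 in the arrays labelled shTR1 was −0.19 (−0.34; 0.27 to 1.12 over the single arrays left out). Dnajb9 in shTR1/shSep15 against control was 0.20 with array weights and 0.10 in the fits without control replicate 2, with a range of −0.99 to 0.10 over the single arrays left out. The cause was not tested. Deviations of same-numbered arrays correlated at −0.53 to 0.47. Arrays with different numbers were not compared in this way, so these values cannot decide whether the numbers pair the samples. With the replicate block 0 markers passed in each comparison.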
